A study of Mus musculus with 2 samples.

Results

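Mucin-type glycosyltransferases are the enzymes that build the sugar chains of mucins, one sugar at a time, in the Golgi. They were taken here as every gene whose symbol belongs to the Galnt, B3gnt, B3galt, B4galt, Gcnt, Fut, St3gal, St6gal or St6galnac families with a number, plus C1galt1, and with 20 or more unique molecular identifiers (UMIs) over both libraries. The names matched 65 symbols and 66 of the 32285 features, because St6galnac2 is carried by 2 overlapping Ensembl identifiers. All 66 held 20 or more UMIs: the lowest were B3gnt4 with 33 and Fut7 with 35, and no feature fell outside the limit. By role they were 17 initiating GalNAc transferases, 5 core enzymes, 21 enzymes of elongation and branching, 8 fucosyltransferases and 15 sialyltransferases.

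Colon tumours were induced in mice with azoxymethane and dextran sulfate sodium (AOM/DSS), a mutagen followed by an agent that injures the colonic lining, and were dissociated for droplet sequencing of single cells (10x Genomics 3′ chemistry, v3). One library carries the label Gsk3b (IEC+/+), intestinal epithelium that keeps Gsk3b, and is called the WT library. The other carries the label Gsk3b (IEC-/-), epithelium without it, and is called the KO library. Both groups received AOM/DSS and both are tumour tissue, so neither is an untreated control. Each genotype is 1 library, the sources used here give neither the number of mice in each nor the Cre driver, and no test between genotypes could be run. Intervals are 95% intervals of counting error only, and genotype, library and animal cannot be told apart.

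O-glycosylation of mucins starts when a polypeptide GalNAc transferase of the Galnt family puts N-acetylgalactosamine on serine or threonine. C1galt1 and B3gnt6 then lay down the core 1 and core 3 structures, the Gcnt enzymes branch them, B3gnt, B3galt and B4galt enzymes extend them, and fucose and sialic acid cap them. Goblet cells of the colon make the secreted mucin Muc2 and carry a heavy load of these enzymes, while absorptive cells make membrane mucins. The families are wider than mucins: Fut8 and St6gal1 act on N-glycans, B4galt7 and B3galt6 on the linker of proteoglycans, and B4galt5, B4galt6, B3gnt5, B3galt4 and St3gal5 mainly on glycolipids.

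The WT matrix held 164574326 UMIs and gave 9503 cells, and the KO matrix held 156641780 UMIs and gave 10310 cells; 34 cell barcodes occurred in both. Epithelial cells numbered 4381 and 4285, with a median of 20161 and 19527 UMIs, and all 11 epithelial markers were present in them in both libraries. Gsk3b itself was read at 261 CPM, its share of all UMIs scaled to 1000000, in WT and 239 CPM in KO epithelium, but the deleted part of the gene is not named in the sources used here, so these 3′ counts could not be used to check the labels. Free RNA differed between the libraries: immunoglobulin UMIs outside B and plasma cells put its part in the cells at 10.5% (WT) and 16.3% (KO), and in empty droplets Muc2 stood at 233 and 663 CPM.

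Epithelial cells were divided into 7 states from marker genes, with the enzymes left out of the genes used for clustering. Goblet-like cells (79 WT and 308 KO cells) were led by Clca1 and Zg16. A cluster led by Wnt3, Kcnma1 and Chrm3 (199 and 178 cells) carried both goblet and Paneth-like markers and was left unnamed, as was one led by Adh1, Defb45 and Slc5a8 (111 and 407 cells). The others were absorptive-like (686 and 594), stem or progenitor-like (811 and 819), cycling (234 and 182) and Wnt-high cells (1806 and 1394). The Wnt-high cells include a subcluster led by Tgm4, Alb and Bdnf with 610 WT cells and 6 KO cells. It may therefore be that library and not a state. Counts in Wnt-high cells, and some of the values that it moves, are also given without it (1196 and 1388 cells). This alternative was chosen after seeing the data. Most stem or progenitor-like cells parted almost by library at a finer resolution. They fell into clusters of 702 WT and 29 KO cells and of 33 and 658 cells, with smaller clusters beside them. Comparisons inside that state therefore set different clusters against each other.

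Promoter sequence is shown for enzymes on which the results turn, chosen after their values were seen: Galnt5, highest in goblet-like cells and with CAGCTG in tandem, Galnt10, also highest there and without it, and Gcnt2, which was low there. Sequences are the RefSeq gene starts on GRCm38.p6 in 5′ to 3′ direction on the gene's strand. RefSeq entries were found for 48 of the 65 symbols (68 starts), and Gcnt2 has 3 starts that a 3′ count cannot tell apart. The 250 bases before each start were searched on both strands for CAGCTG, the E-box of the kind bound by the goblet-cell factor ATOH1, for CTTTGAT, the core of the TCF/LEF motif, and for TATAAA. Capitals mark CAGCTG. The 30 bases of Galnt5 are chr2:57998085-57998114 on the + strand, from -70 to -41, and hold CAGCTG at -63 and -57. They lie before the RefSeq start but inside Galnt5 by the gene coordinates given below, which come from another annotation. The 30 bases of Gcnt2 are chr13:40859720-40859749 on the + strand, before its first start, with CAGCTG at -36. The 250 bases before the middle Gcnt2 start (chr13:40886508-40886757) and before Galnt10 (chr11:57645192-57645441, + strand) held none of the 3 motifs.
Galnt5: tgtcctgCAGCTGCAGCTGactgctccggg
Gcnt2, first start: ttaaagcataccCAGCTGgtacaaaggggg
Gcnt2, middle start: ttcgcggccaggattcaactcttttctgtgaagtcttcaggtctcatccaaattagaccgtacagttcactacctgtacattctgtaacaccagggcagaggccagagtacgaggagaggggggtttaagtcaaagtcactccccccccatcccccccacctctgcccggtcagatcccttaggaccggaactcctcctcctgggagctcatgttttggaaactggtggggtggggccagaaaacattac
Galnt10: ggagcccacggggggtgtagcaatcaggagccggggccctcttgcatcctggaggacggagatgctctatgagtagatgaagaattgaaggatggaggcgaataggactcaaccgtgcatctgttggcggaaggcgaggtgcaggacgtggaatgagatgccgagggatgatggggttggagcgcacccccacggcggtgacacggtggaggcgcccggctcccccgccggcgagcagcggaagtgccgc
The Galnt10 stretch is 64.4% G or C with 20 CpG, against 54.0% and 6 CpG in the middle Gcnt2 start; the median of all promoters was 52.4%. Over the enzymes, CAGCTG stood in 9 of 68 promoters (13.2%) and in 13% of the 32851 promoters of all genes, so the enzymes held it about as often as other genes. CTTTGAT stood in 1 of 68 (1.47%, all genes 3.21%) and TATAAA in 1 of 68 (1.47%, all genes 12.4%). A match is a description of the letters and not a binding site.

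The first question was where in the epithelium each enzyme is found. Goblet-like cells held the highest level of 21 of the 61 enzymes with 20 or more UMIs in epithelial cells, in both libraries, against 5.04% of all genes. The summed level of all 66 was 4719 CPM (WT) and 4028 CPM (KO) in goblet-like cells, compared with 1356 and 1304 CPM in Wnt-high cells. For 13 of the 21 the interval of the goblet-like level lay above that of the next state in both libraries. Wnt-high cells were highest for 12 enzymes in both libraries (all genes, 19.5%), a share near that of all genes, 4 of them with intervals apart; without the WT-held subcluster the count was 10 (all genes, 20.6%), Gcnt7 and Galnt14 no longer being among them. The highest state was the same in both libraries for 44 of 61 enzymes (all genes, 57.3%), 21 of them with intervals apart in both.

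**Figure D1:**
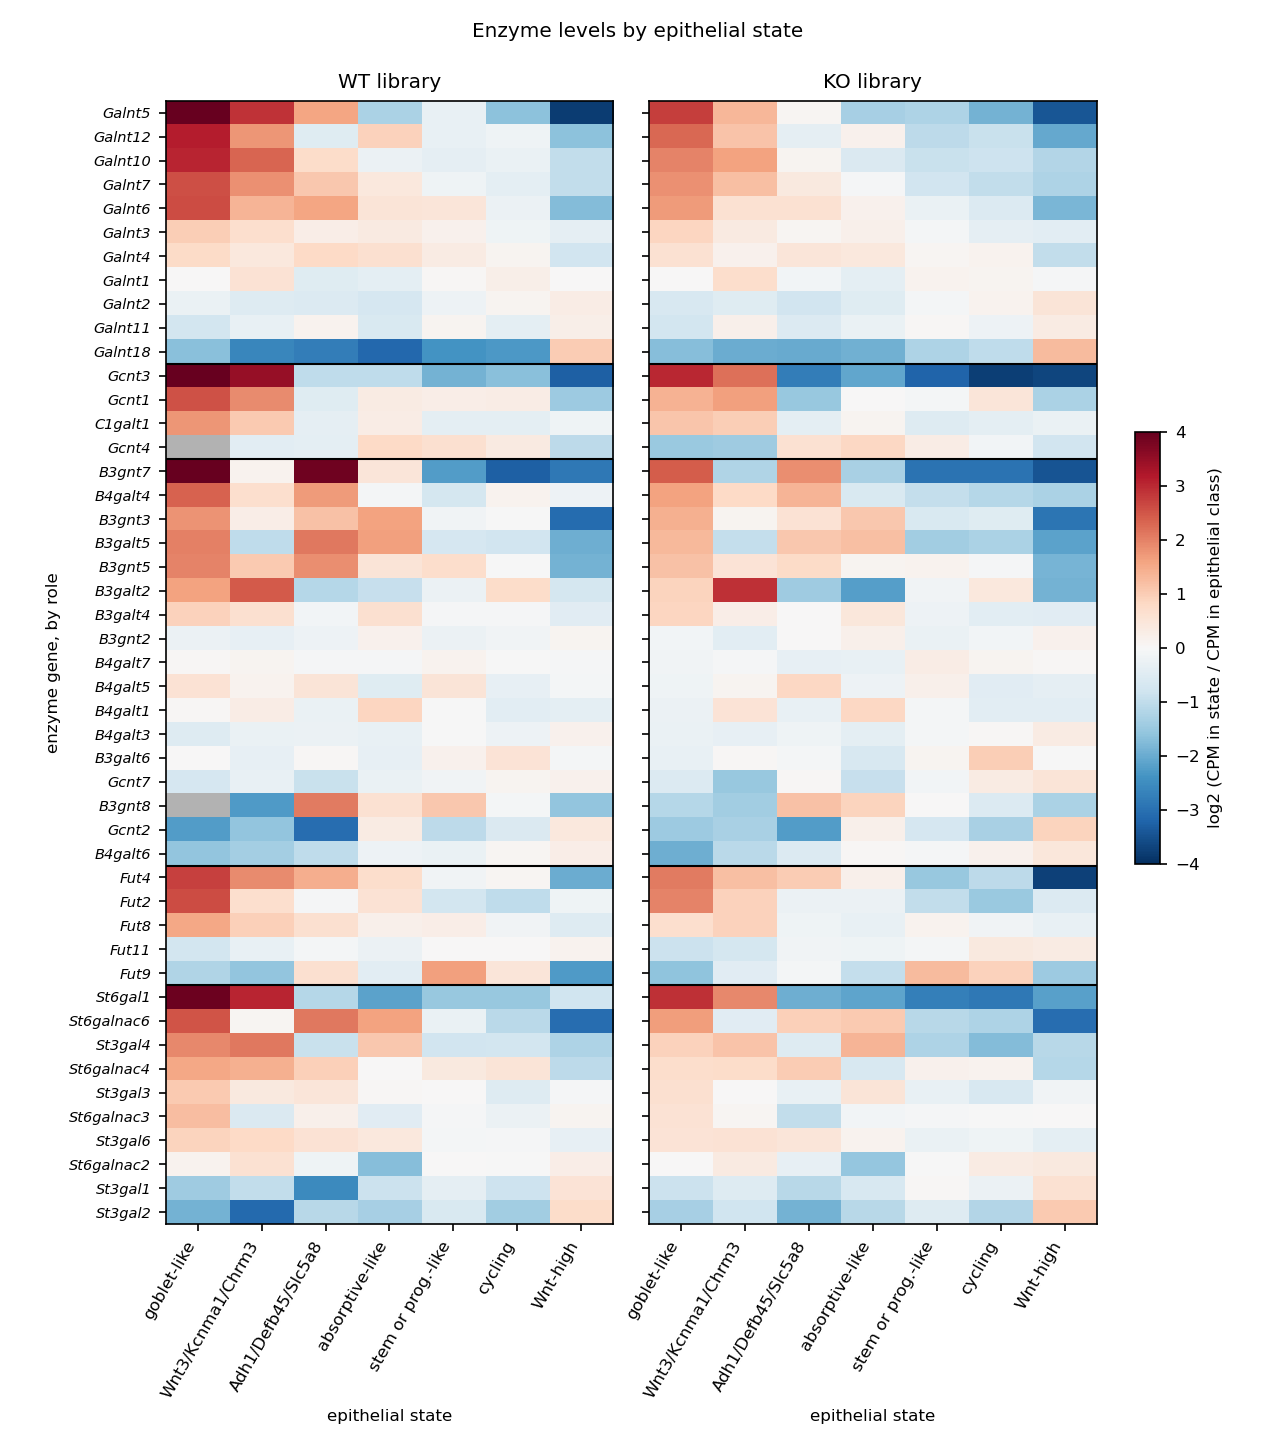
Level of the 47 enzymes with 200 or more epithelial UMIs in each of 7 epithelial states (columns), as log2 of the CPM in the state over the CPM in the epithelial class of the same library; black lines part the 5 roles and grey is 0 UMIs. Galnt5, Gcnt3, B3gnt7 and St6gal1 are red in goblet-like cells of both libraries, and Galnt18, St3gal1 and St3gal2 are red in Wnt-high cells.

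Among the initiating enzymes, Galnt5, Galnt6, Galnt7, Galnt10, Galnt12 and Galnt3 were highest in goblet-like cells of both libraries. Galnt12, which starts O-glycans in the colon, stood at 228 CPM (interval 203 to 256) in WT and 204 CPM (194 to 214) in KO goblet-like cells, and at 8.16 and 10.0 CPM in Wnt-high cells. Galnt5 (chr2:57997884-58045860) was the most uneven of them: 78.7 and 61.4 CPM in goblet-like cells, 25.1 and 23.0 CPM in the Wnt3-led cluster, and 0.241 and 0.854 CPM in Wnt-high cells. Galnt7 and Galnt10, which act best on peptides that already carry a sugar, stood at 405 and 363 CPM and at 212 and 145 CPM in goblet-like cells. Galnt6 stood at 205 and 140 CPM there and at 10.1 and 12.1 CPM in Wnt-high cells. Galnt3 differed less, from 83.9 and 86.8 CPM in Wnt-high cells to 215 and 214 CPM in goblet-like cells. The remaining initiating enzymes had other patterns. Galnt1 was highest in the Wnt3-led cluster (122 and 145 CPM), Galnt4 stood between 22.7 and 76.7 CPM over all states, and Galnt2 and Galnt11 were highest in Wnt-high cells (31.4 and 31.5 CPM, 16.5 and 15.1 CPM) without intervals apart. Galnt4 and Galnt2 overlap another gene on the same strand, so their counts are uncertain.

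Galnt18 (chr7:111471661-111779977) was highest in Wnt-high cells, at 54.1 CPM (52.0 to 56.3) in WT and 20.1 CPM (18.5 to 21.8) in KO. Without the WT-held subcluster Galnt18 stood at 65.8 and 20.2 CPM there. In the other 6 states it lay between 2.03 and 8.49 CPM. Its highest state was thus the same in KO, at a lower level.

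The core enzymes were split. Gcnt3, the mucin-type branching enzyme that makes core 2 and core 4, stood at 143 CPM (123 to 165) in WT and 133 CPM (125 to 141) in KO goblet-like cells. In the Wnt3-led cluster it stood at 79.9 and 75.8 CPM, and in the other 5 states at 3.87 CPM or less. C1galt1, the core 1 enzyme, was present in every state, from 67.3 to 111 CPM outside the goblet-like (309 and 210 CPM) and Wnt3-led cells (186 and 191 CPM). Gcnt1, the widespread core 2 enzyme, was highest in goblet-like cells in WT (35.5 CPM) and in the Wnt3-led cluster in KO (30.5 CPM). Gcnt4 was highest in absorptive-like cells, at 3.03 and 5.0 CPM. B3gnt6, the core 3 enzyme of the normal colon, had only 73 UMIs in epithelial cells, and its level in goblet-like cells was 5.40 CPM (WT, 7 UMIs) and 2.78 CPM (KO, 22 UMIs).

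Of the elongating enzymes, B3gnt7 (chr1:86302832-86307305), which adds N-acetylglucosamine to extend galactose chains, stood at 273 and 352 CPM in goblet-like cells and at 196 and 236 CPM in the Adh1-led cluster. In the stem or progenitor-like, cycling and Wnt-high cells of WT it lay between 1.37 and 2.78 CPM. B3gnt3, an extender of core 1, and B3galt5, which makes type 1 chains, were raised in goblet-like (113 and 130 CPM, 132 and 118 CPM), absorptive-like (101 and 104 CPM, 103 and 111 CPM) and Adh1-led cells (73.5 and 73.3 CPM, 142 and 101 CPM). In Wnt-high cells they stood at 3.88 and 6.50 CPM and at 8.55 and 10.8 CPM. B3gnt5 and B4galt4 were likewise highest in goblet-like cells (133 and 137 CPM, 35.5 and 27.6 CPM). The Adh1-led cluster lay near in 1 library each. With free RNA subtracted, B3gnt5 in WT was left at 131 CPM in goblet-like and 121 CPM in Adh1-led cells. B4galt4 in KO was left at 26.3 and 22.0 CPM. B4galt1 (chr4:40804602-40854005), a main galactosyltransferase of type 2 chains, was highest in absorptive-like cells, at 270 CPM (262 to 278) and 180 CPM (173 to 187). Gcnt2 (chr13:40859754-40960892), which makes the branched I antigen, was highest in Wnt-high (104 and 63.7 CPM) and absorptive-like cells (96.8 and 39.8 CPM) and stood at 9.25 and 7.28 CPM in the Adh1-led cluster. B4galt6 was highest in Wnt-high cells (101 and 98.1 CPM, and 89.6 and 98.1 CPM without the WT-held subcluster, where it stood near the 87.9 CPM of WT cycling cells) and lowest in goblet-like cells (27.8 and 18.5 CPM). B3galt2 was highest in the Wnt3-led cluster, at 52.6 and 51.4 CPM.

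A further 6 enzymes of this group are given by their range. B3gnt2 lay between 33.5 and 52.2 CPM in all 7 states, B4galt7 between 12.4 and 19.1 CPM, B4galt3 between 21.6 and 36.1 CPM, B3galt6 between 7.61 and 23.5 CPM (highest in cycling cells in both libraries), B3galt4 between 4.17 and 12.3 CPM, and B4galt5 between 19.2 and 53.6 CPM. B4galt7 and B3galt6 belong to the proteoglycan linker. B3gnt2 overlaps another gene on the same strand, so its count is uncertain.

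Among the fucosyltransferases, Fut2, which makes the H antigen on secretions, stood at 209 CPM (185 to 236) in WT and 122 CPM (115 to 130) in KO goblet-like cells, and Fut4, a Lewis x enzyme, at 52.5 and 58.9 CPM. Fut9, another Lewis x enzyme, had the reverse pattern: it was highest in stem or progenitor-like cells, at 123 CPM (118 to 128) and 120 CPM (115 to 124), and stood at 17 and 16.3 CPM in goblet-like cells. Fut8 was highest in goblet-like cells in WT (308 CPM) but not in KO, where the Wnt3-led cluster stood at 201 CPM and goblet-like cells at 168 CPM. Fut11 lay between 6.83 and 16.3 CPM in every state.

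Sialyltransferases fell into several patterns. St6gal1 (chr16:23224740-23360350) stood at 58.6 and 67.9 CPM in goblet-like cells and at 32.3 and 33.7 CPM in the Wnt3-led cluster, with 2.30 CPM or less in the other 5 states. St6galnac6 was highest in goblet-like cells (424 and 410 CPM) and also high in the Adh1-led cluster (318 and 248 CPM) and absorptive-like cells (228 and 269 CPM), with 8.92 and 15.8 CPM in Wnt-high cells. St6galnac4 lies 10 bases before St6galnac6 on the same strand, and was highest in goblet-like cells in WT (23.9 CPM) and in the Adh1-led cluster in KO (28.0 CPM). St3gal4 was highest in the Wnt3-led cluster in WT (93.9 and 78.8 CPM) and in absorptive-like cells in KO (46.3 and 92.5 CPM). St3gal6 (106 to 248 CPM) and St3gal3 (43.2 to 130 CPM) were spread over all states. The pair that sialylates core 1, St3gal1 and St3gal2, was highest in Wnt-high cells. St3gal1 stood at 30.2 and 17 CPM there, and St3gal2 at 9.49 and 9.13 CPM. Without the WT-held subcluster St3gal2 stood at 12.1 and 9.18 CPM (log2 -0.40, -0.64 to -0.17), and St3gal1 at 31.3 and 16.9 CPM. St3gal1 in Wnt-high cells lay below its empty-droplet level in both libraries. With free RNA subtracted, 26.1 and 11.4 CPM of it were left there. St6galnac2, by its main identifier, lay between 13 and 64.9 CPM, and St6galnac1, the enzyme of the sialyl-Tn antigen, had 20 UMIs in all epithelial cells together.

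The second comparison was KO against WT over the whole epithelial class. Of the 61 enzymes, 14 were higher in the KO library by 1.5-fold or more (all genes, 7.11%) and 6 were lower (all genes, 11.7%). Their median log2 ratio was 0.10, against -0.06 for all genes. Among the 47 enzymes with 200 or more UMIs, 12 were higher (all genes of that depth, 3.70%) and 3 lower (6.93%). By role, those past 1.5-fold upward were 2 of 15 initiating enzymes, 3 of 5 core enzymes, 3 of 21 elongating enzymes, 1 of 6 fucosyltransferases and 5 of 14 sialyltransferases.

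Of the higher enzymes B3gnt7 had the largest log2 ratio, with 13.1 CPM in WT and 65 CPM in KO epithelium, a value of 2.31 (2.22 to 2.39). Galnt5 stood at 3.37 and 9.09 CPM (log2 1.43, 1.25 to 1.62), Gcnt3 at 7.14 and 16.5 CPM (1.20) and St6gal1 at 3.88 and 8.88 CPM (1.19). Each of these 4 was also the higher in the empty droplets of KO, B3gnt7 at 10.6 and 54.8 CPM. The other 8 had log2 ratios of 0.83 (B3gnt5), 0.82 (Fut4), 0.81 (St6galnac6), 0.76 (St6galnac4), 0.70 (St3gal4), 0.69 (Gcnt4), 0.68 (Gcnt1) and 0.68 (Galnt12). Of the 12, 8 were highest in goblet-like cells in both libraries, as were 5.59% of all genes of that depth, higher in KO or not. The share among all genes higher in KO was not taken. The class held 79 WT and 308 KO goblet-like cells.

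Lower in KO were Galnt18 (26.8 and 8.28 CPM, log2 -1.70, -1.81 to -1.58), Gcnt2 (77.0 and 34.5 CPM, -1.16, -1.22 to -1.10) and St3gal1 (20.6 and 11.1 CPM, -0.89, -1.0 to -0.78). All 3 were highest in Wnt-high cells in both libraries, as were 19.5% of all genes with 20 or more UMIs, lower in KO or not. Galnt14 had 57 UMIs in WT and 1 in KO epithelium (log2 -5.76, -11.09 to -3.22), and 48 of the 57 came from the subcluster led by Tgm4, Alb and Bdnf. B4galt1 just missed the threshold, at 150 and 101 CPM (log2 -0.56, -0.60 to -0.53). The remaining enzymes of that depth lay between -0.56 and 0.58, Galnt7 being the nearest to the limit upward (67.8 and 102 CPM).

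**Figure D2:**
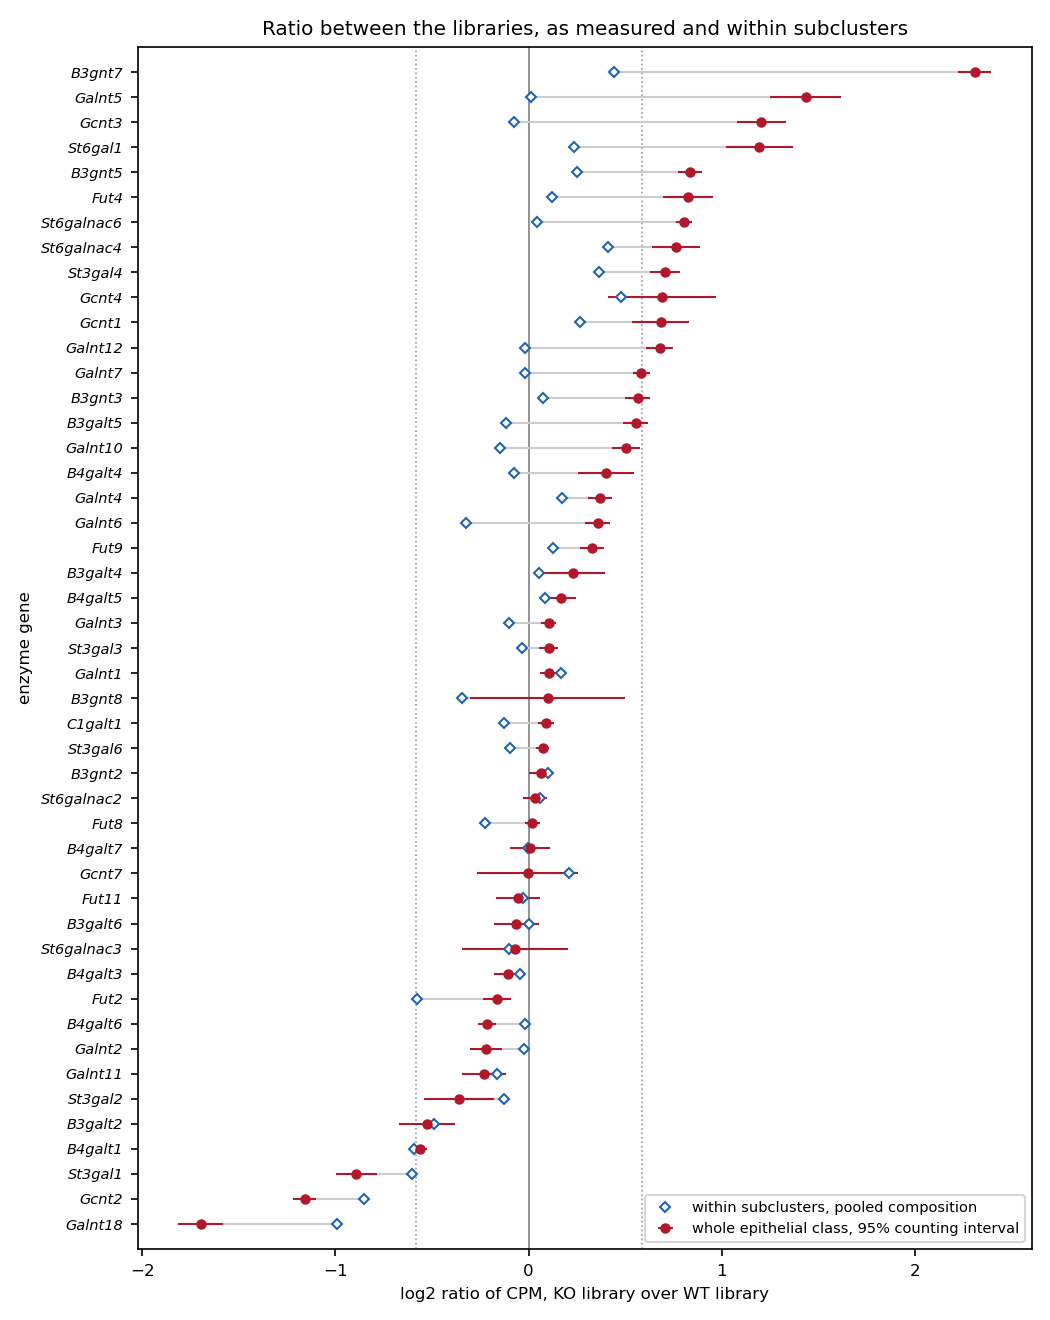
Log2 ratio of CPM, KO over WT, of the 47 enzymes with 200 or more epithelial UMIs. Red points are the whole epithelial class with 95% counting intervals, and dotted lines are 1.5-fold. Open diamonds are the ratio within epithelial subclusters of 20 or more cells in each library, weighted to the pooled composition. B3gnt7 is at 2.31 over the class and 0.44 within subclusters, Gcnt3 at 1.20 and -0.07, while Galnt18, Gcnt2 and St3gal1 stay left of the lower dotted line.

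Within subclusters of 20 or more cells in each library, weighted to the pooled composition, the picture differed by direction. This leaves out the subcluster of 610 WT and 6 KO cells and one of 27 and 8 cells. Of the 61 enzymes 3 were higher (all genes, 6.43%) and 8 lower (8.87%). None of the 12 higher enzymes stayed past 1.5-fold: their log2 ratios lay between -0.07 and 0.48, with B3gnt7 at 0.44, Galnt5 at 0.01, Gcnt3 at -0.07, St6gal1 at 0.23 and Galnt12 at -0.02. The 3 lower enzymes did stay past it, with Galnt18 at -0.99, Gcnt2 at -0.85 and St3gal1 at -0.61, and B4galt1 passed it at -0.59. Without the subcluster held almost wholly by the WT library, 8 of 57 enzymes were higher (all genes, 6.53%) and 5 lower (10.5%) over the class. St6galnac6, Galnt12, St3gal4, Gcnt4 and Gcnt1 then no longer passed 1.5-fold.

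The third comparison was KO against WT inside each state. In goblet-like cells 45 enzymes had 20 or more UMIs: 0 were higher in KO by 1.5-fold (all genes, 8.16%) and 10 were lower (all genes, 15%), with a median log2 ratio of -0.27 against -0.08 for all genes. Lower with an interval below 0 were Fut8 (308 and 168 CPM, log2 -0.88), B4galt1 (154 and 85.8 CPM, -0.85), Fut2 (209 and 122 CPM, -0.78), B3galt2 (29.3 and 12.5 CPM, -1.23), Galnt18 and B4galt6. C1galt1 (-0.56), Galnt6 (-0.55) and Galnt10 (-0.54) fell short of 1.5-fold with intervals below 0. Gcnt3 (-0.10, -0.33 to 0.13), Galnt12 (-0.17, -0.35 to 0.02), St6gal1 (0.21, -0.14 to 0.58) and Fut4 (0.17) had intervals across 0. B3gnt7 was the only one of the 45 with an interval above 0, at 0.37 (0.21 to 0.53). The median goblet-like cell had 14915 UMIs in WT and 25186.5 in KO, and the part of this depth in the values was not tested.

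In Wnt-high cells 13 of 53 enzymes were higher (all genes, 6.42%) and 8 lower (10.3%); without the WT-held subcluster 13 of 52 were higher (6.47%) and 4 lower (9.13%). Absorptive-like cells had 5 of 47 higher (6.33%) and 5 lower (8.66%), and the Adh1-led cluster 5 of 45 higher (9.08%) and 8 lower (10.9%). Cycling cells had 6 of 46 higher (6.80%) and 5 lower (7.15%). Stem or progenitor-like cells had 3 of 49 in each direction (5.17% higher, 9.05% lower), and so had the Wnt3-led cluster with 3 of 43 (5.02% and 8.43%). Fut9 differed by state: it was higher in KO in the Wnt3-led cluster (13.1 and 36.4 CPM, log2 1.48, 1.04 to 1.92), Wnt-high cells (8.20 and 18.1 CPM, and 10.4 and 18.1 CPM without the WT-held subcluster) and cycling cells (55.0 and 93.5 CPM). It was lower in the Adh1-led cluster (61.2 and 46.7 CPM, -0.39, -0.66 to -0.11) and absorptive-like cells (29.4 and 25.6 CPM). In stem or progenitor-like cells its interval crossed 0 (-0.03, -0.12 to 0.05), and the finer clusters of that state differed. In the largest, of 702 WT and 29 KO cells and of 33 and 658 cells, it lay below 0. Fut9 stood there at 128 and 76.9 CPM and at 183 and 132 CPM. In smaller clusters its interval lay above 0, at 26.8 and 65.1 CPM (32 and 105 cells) and at 73.9 and 144 CPM (20 and 12 cells). It crossed 0 in a cluster of 16 and 12 cells (75.2 and 101 CPM).

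**Figure D3:**
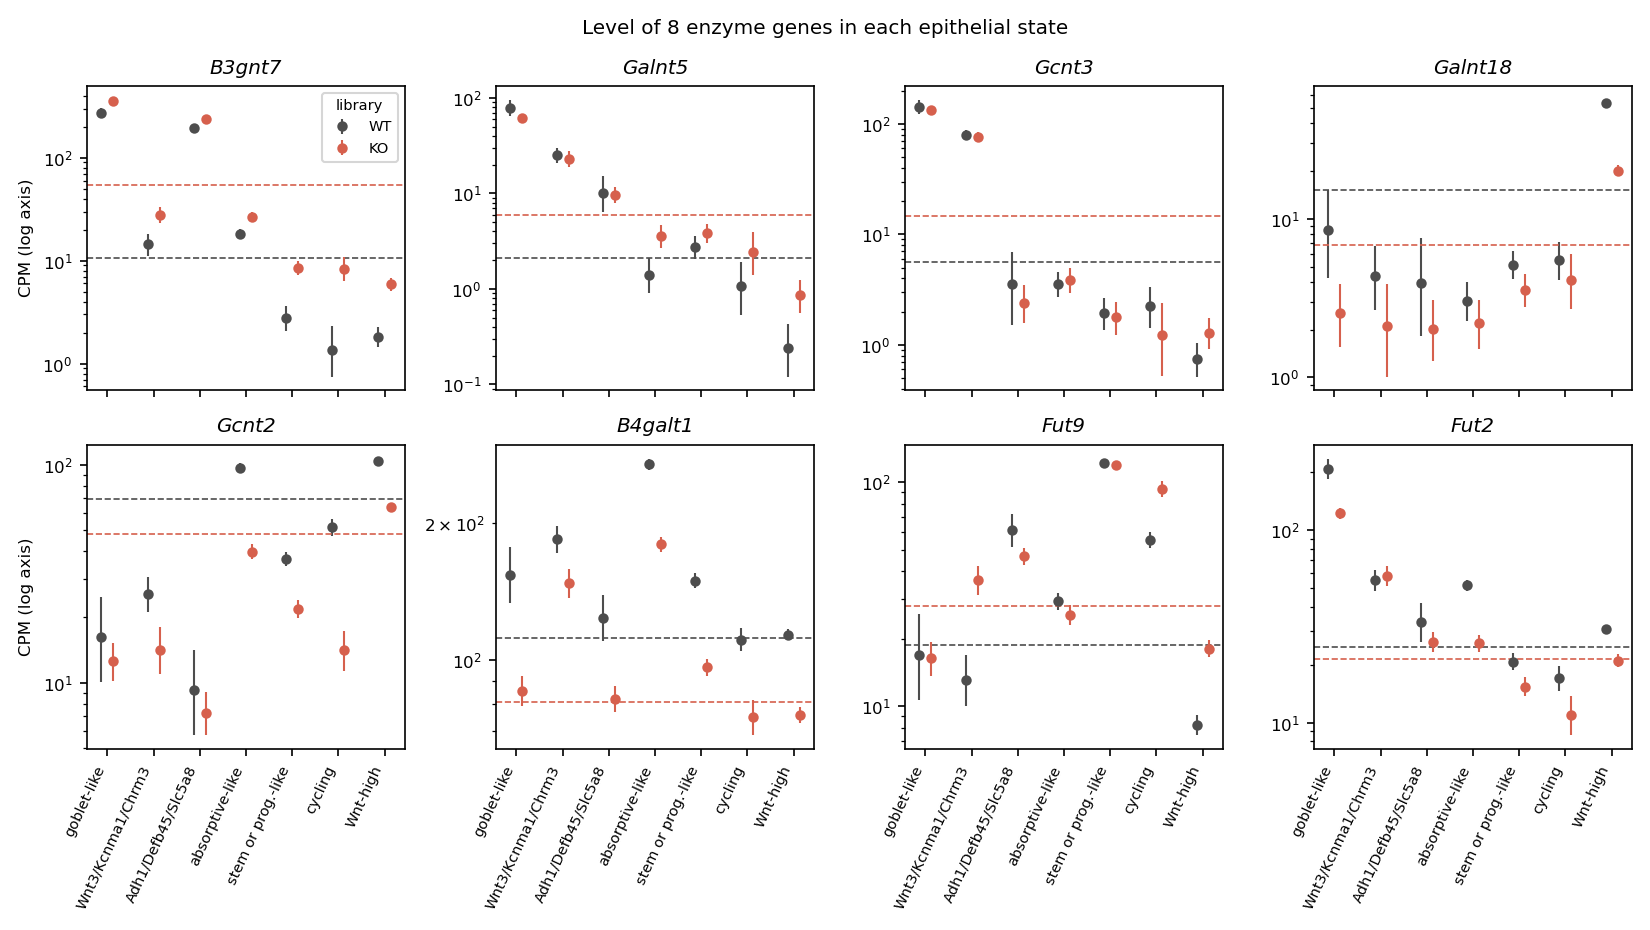
CPM (log axis) of 8 enzymes in each epithelial state, WT in grey and KO in red, with 95% counting intervals; dashed lines are the level in the empty droplets of each library. B4galt1 and Gcnt2 lie lower in KO in all 7 states, and B3gnt7 lies higher in all 7, while the KO empty-droplet line of B3gnt7 (54.8 CPM) lies above its level in 5 states.

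Few enzymes differed the same way in most states. B4galt1 was lower in KO in 7 of 7 states with all 7 intervals below 0. It stood at 270 and 180 CPM in absorptive-like and at 150 and 96.5 CPM in stem or progenitor-like cells. In the largest finer clusters of the latter it was at 148 and 55.1 CPM, and at 109 and 92.9 CPM with an interval across 0. Gcnt2 was lower in 7 of 7, with 5 intervals below 0, most in cycling cells (51.4 and 14.0 CPM) and absorptive-like cells (96.8 and 39.8 CPM). Fut2 and B3galt2 each had 5 intervals below 0, Fut2 at 51.6 and 25.9 CPM in absorptive-like cells. In all, 4 of the 47 enzymes had intervals below 0 in 5 or more states (all genes of that depth, 5.59%) and 3 had intervals above 0 in 5 or more (3.72%): B3gnt7 (7 states), B3gnt5 and Gcnt1. Of these 7 enzymes, B3gnt5 was lower in the Adh1-led cluster (-0.27, -0.46 to -0.07), Gcnt1 lower in 2 states and Fut2 higher in 1, with intervals across 0. Without the WT-held subcluster B3galt2 stood at 1.77 and 1.78 CPM in Wnt-high cells and had 4 intervals below 0, which left 3 enzymes below 0 in 5 or more states (all genes, 5.40%) and 3 above (3.81%). With free RNA subtracted, B3gnt7 was higher in KO in 4 states and lower in 3: in stem or progenitor-like, Wnt-high and cycling cells the KO level came to 0, and in goblet-like cells 272 and 343 CPM were left. B4galt1, Gcnt2 and Galnt18 stayed lower in KO in 7 of 7 states after that subtraction. These levels are over the total before subtraction, and 10.5% (WT) and 16.3% (KO) was taken as free RNA, which lowers KO more. C1galt1, higher in KO in 4 states before, was also lower in 7 of 7 after it. In the Adh1-led cluster Gcnt2 was left at 1.95 CPM in WT and 0 in KO. The count alone thus does not set B4galt1, Gcnt2 and Galnt18 apart.

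A subcluster of Wnt-high cells led by Clstn2, Kif26b and Vwa2 (500 WT and 991 KO cells) shows the lower enzymes without the WT-held one. Galnt18 stood at 23.9 and 10.2 CPM there (log2 -1.22, -1.49 to -0.96). St3gal1 stood at 24.6 and 15.9 CPM (-0.63, -0.87 to -0.39), and Gcnt2 at 79.2 and 55.4 CPM (-0.52, -0.65 to -0.39). All 3 intervals lay below 0. St3gal1 is high in monocytes or macrophages, whose markers moved with it in the epithelial class. The 13 monocyte or macrophage markers, none at 0, summed to 560 CPM (WT) and 296 CPM (KO) there. Their part in the result was not tested. Gcnt2 is named below for neutrophils and dendritic cells, and not for monocytes or macrophages. Marker sums of those 2 classes in epithelium are not given here, so this comparison does not cover Gcnt2. With free RNA subtracted, the log2 ratios of the class were -1.50 for St3gal1 and -1.29 for Gcnt2. Before it, St3gal1 lay below its empty-droplet level in the epithelial class of both libraries, and Gcnt2 in that of KO.

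Other genes of the pathway were taken from lists. Of 23 genes of nucleotide-sugar supply, 3 were higher in KO epithelium (all genes, 7.11%) and 0 lower (all genes, 11.7%), with a median log2 ratio of 0.23 against -0.06 for all genes: Slc35a1, the Golgi carrier of CMP-sialic acid (37.7 and 70.8 CPM, 0.91), Nans, which makes sialic acid (117 and 194 CPM, 0.73), and Gfpt1, the entry enzyme of the hexosamine pathway (108 and 167 CPM, 0.62). All 3 were high in goblet-like cells, where the libraries lay close: Nans at 458 and 536 CPM, Gfpt1 at 520 and 501 CPM, Slc35a1 at 194 and 200 CPM. In other states Slc35a1 was higher in KO by more than 1.5-fold, at 56.3 and 86.9 CPM in absorptive-like and 28.9 and 49.4 CPM in cycling cells. Of 29 other glycan enzymes, 5 were higher and 8 lower (median 0.07), among them the sulfotransferase Chst4 (6.33 and 13.9 CPM, 1.13) and, lower, the Sda enzyme B4galnt2 (22.6 and 7.85 CPM, -1.52), B4galnt1 (11.2 and 7.19 CPM, -0.64) and B4galnt4 (11.1 and 7.11 CPM, -0.64). B4galnt2 was lower inside states too, at 22.9 and 1.64 CPM in Wnt-high cells (4.26 and 1.58 CPM without the WT-held subcluster) and 46.3 and 17.7 CPM in goblet-like cells. Of 12 mucin acceptors, 3 were higher, Muc2 (196 and 719 CPM, 1.88), Muc3 (64.3 and 227 CPM, 1.82) and Muc3a (1.14), and 2 lower, among them Muc6 (-1.46), with a median of -0.08. Muc2, the secreted mucin, stood at 9159 and 7121 CPM in goblet-like cells.

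Outside the epithelium the same families were present in other combinations, shown by genes at least 2-fold above both epithelium and empty droplets in both libraries. St6galnac3, which adds sialic acid to core 1 that already carries one, stood at 556 CPM (531 to 581) in WT and 454 CPM (431 to 478) in KO T cells, at 369 and 228 CPM in B cells and at 157 and 141 CPM in mast cells, against 2.29 and 2.18 CPM in epithelium. St6gal1, which makes the ligand of the B cell lectin CD22, stood at 183 CPM in B cells of both libraries. Galnt2 stood at 136 and 106 CPM in T cells, and B3gnt2 at 175 and 184 CPM in T cells and 200 and 173 CPM in B cells. B3gnt5 and Galnt11 were also raised in B cells.

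Myeloid cells carried a further set. Gcnt2 stood at 365 CPM (350 to 379) and 432 CPM (416 to 448) in neutrophils and at 281 and 293 CPM in dendritic cells. St3gal1 stood at 311 and 279 CPM in monocytes or macrophages and at 323 and 236 CPM in dendritic cells. St3gal4, an enzyme of selectin ligands, stood at 107 and 106 CPM in neutrophils, St3gal5, the GM3 synthase, at 77.8 and 87.0 CPM, and Gcnt7 at 20.5 and 20.2 CPM. B4galt5 stood at 120 and 131 CPM in monocytes or macrophages, where B3gnt8 (21.5 and 14.4 CPM) and St6galnac4 (31.4 and 33.0 CPM) were also raised. Gcnt1 stood at 106 and 86.4 CPM in mast cells.

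**Figure D4:**
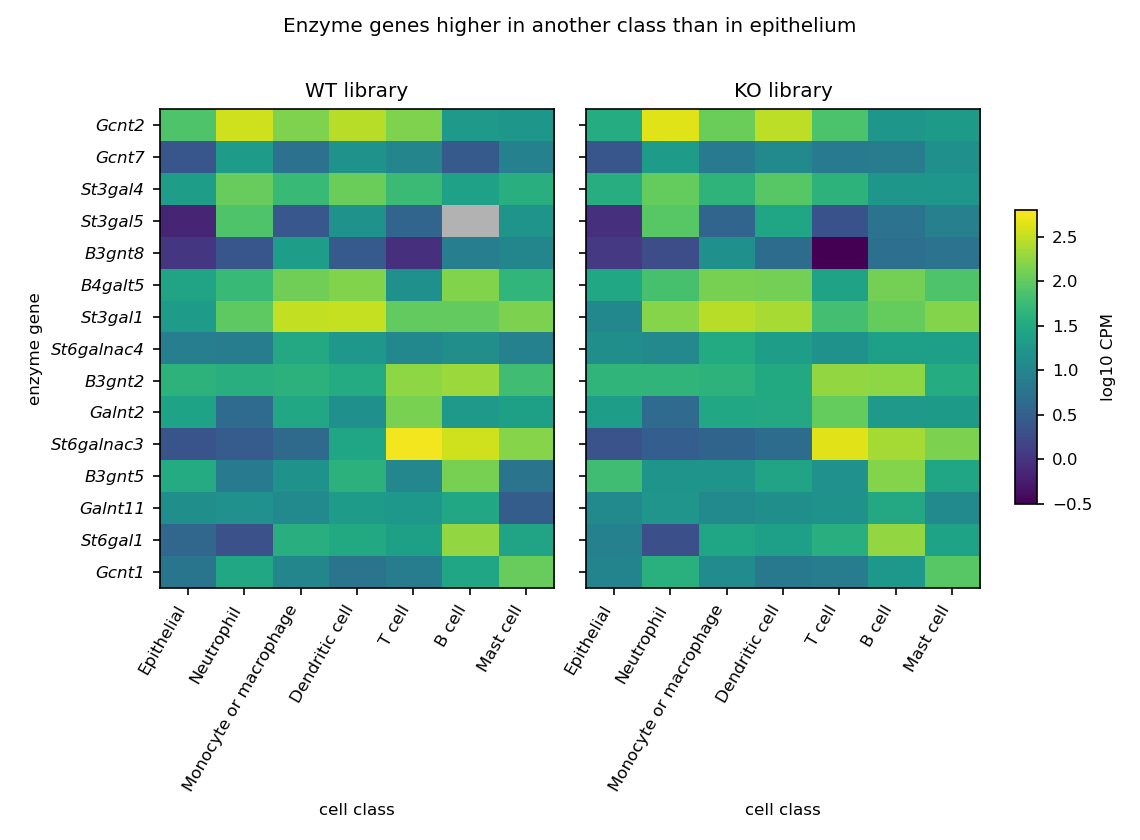
CPM on a log10 colour scale of the 15 enzymes that were at least 2-fold higher in another cell class than in epithelium and in empty droplets, by class and library; grey is 0 UMIs. St6galnac3 is brightest in T cells (556 and 454 CPM), Gcnt2 in neutrophils (365 and 432 CPM) and St3gal1 in monocytes or macrophages and dendritic cells.

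Between the libraries, neutrophils had 10 of 44 enzymes higher in KO (all genes, 18.7%) and 3 lower (5.78%), near the share of other genes. Their median cell had 2432.5 UMIs in WT and 1836 in KO. St3gal1 was among the higher ones, at 97.1 and 160 CPM. The libraries held the neutrophil clusters unequally: in the one led by Cxcr2 and Sirpb1b (1553 and 1062 cells) St3gal1 stood at 97.5 and 131 CPM, and in the one with Nlrp3 and Ccrl2 among its leading genes (403 and 1897 cells) at 104 and 200 CPM. Monocytes or macrophages had 2 of 46 in each direction (5.89% higher, 7.45% lower), and T cells 6 of 45 in each direction (8.0% and 8.53%). B cells had 5 of 28 higher (13.3%) and 2 lower (11.1%), one of them St6galnac3.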

How the data were processed

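UMI counts per gene and barcode, with and without a cell, are the deposited values; Cell Ranger 4 made them per the file headers, and mm10 is the build per the submitters' processing notes. No source used here names the authors' annotation release. Cells were called per library by a test against free RNA (barcodes under 100 UMIs, 10000 draws, FDR 0.001, barcodes of 500 or more UMIs). Cells over 25% mitochondrial UMIs or under 200 genes were removed, and doublets by score at 0.8% per 1000 cells (859 WT and 1029 KO barcodes). Leiden clustering (2000 variable genes without the enzymes, 30 components, 15 neighbours, resolution 1, subclusters 0.6) gave 25 clusters and 13 epithelial subclusters over both libraries, without integration. Clusters were named from marker lists (3 or more markers raised 2-fold). A tie rule between goblet and Paneth-like names, and leaving subclusters of few UMIs out of the states (with 1 of under 20 KO cells), were set after seeing the data. The enzymes and lists were chosen with earlier results of these data known.

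UMIs were summed per class or state and library as CPM, with exact Poisson intervals, and ratios with exact conditional binomial intervals (95%). Since PCR copies are removed by UMIs, these cover counting error only, not animals. Ratios need 20 or more UMIs, a threshold of 1.5-fold was used, and intervals were tested on simulated data. With 1 library per genotype no p-value was computed. Named enzymes have 200 or more epithelial UMIs; in other classes (50 or more cells in each library) they have 50 or more UMIs and 2-fold the epithelial and empty-droplet CPM; of each pathway list, up to 4 genes past 1.5-fold with the most UMIs. Coordinates come from a reference annotation, GENCODE vM21 (GRCm38), and not from the authors' files, matched for all 66. B4galt2 with Ccdc24, and the pair named St6galnac2, also overlap on 1 strand. Clustering used scanpy 1.11.5 and leidenalg 0.10.2, intervals scipy 1.17.1, and figures matplotlib 3.10.9, under Python 3.11.15. Values of 1 other Wnt-high subcluster are not reported here.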

Additional observations from a re-analysis of the deposited data

Results flagged for a closer look

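St3gal1, which sialylates core 1, went past 1.5-fold in opposite directions in different cell classes, and the difference between the classes was not tested. In neutrophils its log2 ratio of KO over WT was 0.72 (0.58 to 0.86), in epithelial cells -0.89 (-1.0 to -0.78) and in T cells -0.62 (-0.87 to -0.37). The neutrophil class holds clusters of unequal share. In those of 1553 WT and 1062 KO cells and of 403 and 1897 cells St3gal1 was higher in KO (0.43, 0.20 to 0.66, and 0.94, 0.64 to 1.25). Its interval crossed 0 in those of 401 and 215 cells (0.44, -0.14 to 1.00) and of 172 and 435 cells (-0.30, -0.94 to 0.35). It also crossed 0 in a cluster of 53 WT cells and 1 KO cell. The 13 monocyte or macrophage markers, of which none was at 0 in neutrophils, summed to 2327 CPM (WT) and 1291 CPM (KO) in that class, so they lay lower in KO where St3gal1 lay higher. In T cells they summed to 787 and 391 CPM, with 0 of 13 at 0 in WT and 1 in KO. St3gal1 in neutrophils stood at 4.72 (WT) and 14.4 (KO) times its epithelial level and at 2.51 and 4.63 times its empty-droplet level. Its epithelial level thus lay below that of the empty droplets in both libraries. In T cells it did not meet the rule by which enzymes of other classes are named. The part of these values in the result was not tested.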

How the results depend on the processing

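No paired analysis was possible because each genotype is 1 library. The count of enzymes highest in goblet-like cells in both libraries (21) lay between 16 and 25 under its 15 alternatives. Median-of-ratios scaling is among the 15 and leaves the order of states as it is, so its count was fixed at 21. The count was 16 of 61 with a mean over cells (all genes, 3.98%) and 25 of 60 with every barcode of 500 or more UMIs (8.73%). The 14 higher enzymes became 8 of 55 with a 10% mitochondrial limit (2930 WT and 3446 KO epithelial cells, all genes 6.18%). Without the subcluster of 610 WT and 6 KO cells, an alternative chosen after seeing the data, they became 8 of 57 (all genes, 6.53%). Within subclusters at pooled composition 3 of 61 were higher (all genes, 6.43%), of which 1 was among the 14. The 6 lower became 12 of 59 with cells thinned to 1000 UMIs, where the share of all genes lower went from 11.7% to 17.9%. The median log2 ratio (0.10) became -0.018 within subclusters, where Galnt12 (-0.018) and Gcnt3 (-0.074) changed sign, as did 14 of the 47 named enzymes that were short of 1.5-fold. The settings changed cells, composition and depth; the cause of each move was not tested beyond that. Of the 15 named enzymes past 1.5-fold, 10 stayed past it with the 10% limit, 11 with thinned cells, 11 with a mean over cells, 10 without the subcluster of 610 WT cells and 3 within subclusters; all 15 stayed past it with median-of-ratios scaling, without doublet removal, at Leiden resolution 0.5, with every barcode of 500 or more UMIs, with the enzymes among the clustering genes, with free RNA subtracted, with a total that leaves out mitochondrial and ribosomal protein genes and without the subclusters of few UMIs. The highest state of the 47 named enzymes was the same in both libraries as in the main values for 22 (no doublet removal) to 47 (free RNA subtracted). States were matched by name, and unnamed ones by their first leading gene. At subclustering resolution 1, for example, the cluster with Adh1 and Slc5a8 was led by Defb45, so an enzyme highest there counted as changed. The counts can therefore include clusters that only took another name, and how many was not tested. Enzymes under 20 UMIs in epithelial cells (5 of 66) are too shallow for a ratio.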
